A study of Homo sapiens with 40 samples.

Results

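The comparison described here is heregulin (HRG) against vehicle after 24 h in BT474R cells, and it rests on 4 of the 40 libraries of the series, 2 HRG and 2 vehicle, which were taken by their labels. Chromatin accessibility was measured by ATAC-seq, in which a transposase cuts open DNA and leaves sequencing adapters there. The series covers BT474, an established HER2-amplified breast carcinoma line, and its trastuzumab-resistant derivative BT474R, both before treatment and after vehicle, HRG or EGF for 1, 12 and 24 h. BT474R is clone 5, raised from BT474 cells kept in trastuzumab, so every value below is from a single clone. Both groups of this comparison were serum-starved first and then received HRG (HRG-BT474R) or water as vehicle in fresh starvation medium. Treatments were done in duplicate, but the sources do not say that the duplicates were separate cultures, so p-values measure only the spread between these libraries, which may be technical.

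Heregulin, the product of the NRG1 gene, binds the receptors HER3 and HER4, which then pair with HER2. HER3 has little kinase activity of its own, and the HER2-HER3 pair is a strong activator of the PI3K and MAP kinase pathways in HER2-amplified breast cells. MAP kinase signalling raises and activates FOS and JUN proteins, whose dimers form the transcription factor AP-1. AP-1 binds the short sequence TGANTCA, which is common in distal regulatory elements, and the same signalling induces its own inhibitors, among them the DUSP phosphatases and the Sprouty proteins.

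The data for each library were a list of peaks, the intervals where the peak caller found an excess of reads. Peaks that overlapped by 1 bp or more in the 4 lists were merged, which gave 55818 regions on chromosomes 1 to 22 and X. A region was called gained if both HRG lists and neither vehicle list had a peak there, and lost in the opposite case. Each peak was also given its rank percentile by peak score within its own list (100 for the top peak, 0 for a region with no peak). The lists differed in length, which moves both presence and percentile, so each was also computed with the 41833 top peaks of every list, called equal numbers below. Shortening only removes peaks, so a region gained as deposited stays gained wherever both its HRG peaks are kept, and likewise for lost regions. Being gained or lost in both versions therefore reflects rank and is not a second test. Read depth is unknown for peak lists, and a region without a peak is one where none was called.

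Some of the strongest gained regions are shown first, with and without the AP-1 sequence, whose share differed between the gained regions and the rest. Given here are the bases within 100 bp of the summit of 4 of the 5 gained regions with the highest percentile in the weaker of the 2 HRG lists, on the plus strand of GRCh38, each named by the nearest protein-coding start, however far. Capitals mark matches to TGANTCA, which is its own reverse complement except at the central base.
PALM2AKAP2 (chr9:109790630-109790830): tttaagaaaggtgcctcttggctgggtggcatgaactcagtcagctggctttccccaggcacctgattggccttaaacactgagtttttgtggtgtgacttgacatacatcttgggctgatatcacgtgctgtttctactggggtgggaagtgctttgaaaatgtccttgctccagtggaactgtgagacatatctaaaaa
SQOR (chr15:45855660-45855860): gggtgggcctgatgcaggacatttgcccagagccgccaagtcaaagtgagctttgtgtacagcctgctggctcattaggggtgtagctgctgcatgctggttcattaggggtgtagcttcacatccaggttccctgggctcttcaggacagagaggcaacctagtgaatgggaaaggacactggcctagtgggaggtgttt
TNFAIP3 (chr6:137978749-137978949): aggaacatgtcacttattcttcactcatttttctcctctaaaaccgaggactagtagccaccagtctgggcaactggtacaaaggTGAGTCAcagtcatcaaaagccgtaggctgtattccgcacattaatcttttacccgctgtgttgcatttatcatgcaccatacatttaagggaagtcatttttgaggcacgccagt
IMMP2L (chr7:111499180-111499380): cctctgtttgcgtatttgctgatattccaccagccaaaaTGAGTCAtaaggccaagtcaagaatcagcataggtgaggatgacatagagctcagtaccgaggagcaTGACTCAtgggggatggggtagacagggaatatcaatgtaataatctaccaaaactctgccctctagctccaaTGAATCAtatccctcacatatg
The window near IMMP2L held 3 matches and the one near TNFAIP3 held 1. The windows near PALM2AKAP2 and SQOR held none.

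The 2 HRG libraries differed in size from each other more than the vehicle libraries did, and this bears on all results that follow. HRG replicate 1 had 55289 peaks and HRG replicate 2 had 44351, while the vehicle replicates had 41833 and 45799, so the groups overlapped. The mean difference was 6004 peaks (exact permutation test, two-sided p = 0.667), and without HRG replicate 1 it was 535. With 2 libraries against 2, the smallest p that this test can give is 0.333. Over the 37469 regions with a peak in all 4 lists, Spearman's rho of the percentiles was 0.937 between the HRG replicates, 0.969 between the vehicle replicates and 0.932 to 0.958 between HRG and vehicle libraries. HRG replicate 1 therefore ranked its regions more like either vehicle library, at 0.955 with both, than like the other HRG library. HRG replicate 2 was also closer to vehicle replicate 2, at 0.958, than to HRG replicate 1, but not to vehicle replicate 1, at 0.932. Lineage markers were read in the same lists, and they do not identify the line itself. The promoters of all 10 luminal breast epithelium markers had a peak in all 4 lists. Those of 8 of 10 markers of other cells had none, and the other 2 (CDH5 and COL1A1) had a peak in all 4.

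In the lists as deposited, gained regions far outnumbered lost ones, but this imbalance depended on list length and on HRG replicate 1. Of the 55818 regions, 1909 were gained (3.42%) and 32 were lost (0.0573%). With equal numbers the balance was much closer, at 813 gained (1.75%) and 474 lost (1.02%) of 46518 regions. The sets had 446 regions in common, which were 23.4% of the former gained set and 54.9% of the latter. Of the 474 lost with equal numbers, 150 (31.6%) had a weaker peak in both deposited HRG lists, and only 15 (3.16%) had one in neither. The deposited list of HRG replicate 1 held a peak for 96.6% of the 474, and that of HRG replicate 2 for 31.9%. Of the 813 gained with equal numbers, 45.1% had a deposited peak in vehicle replicate 2. The count of gained regions also rested on HRG replicate 2 and vehicle replicate 2, since it was 10049 without the former and 4836 without the latter. Without HRG replicate 1, 2361 regions were gained and 1904 lost. The lost count was 264 without vehicle replicate 1, and 75 and 51 without vehicle replicate 2 and HRG replicate 2.

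**Figure D1:**
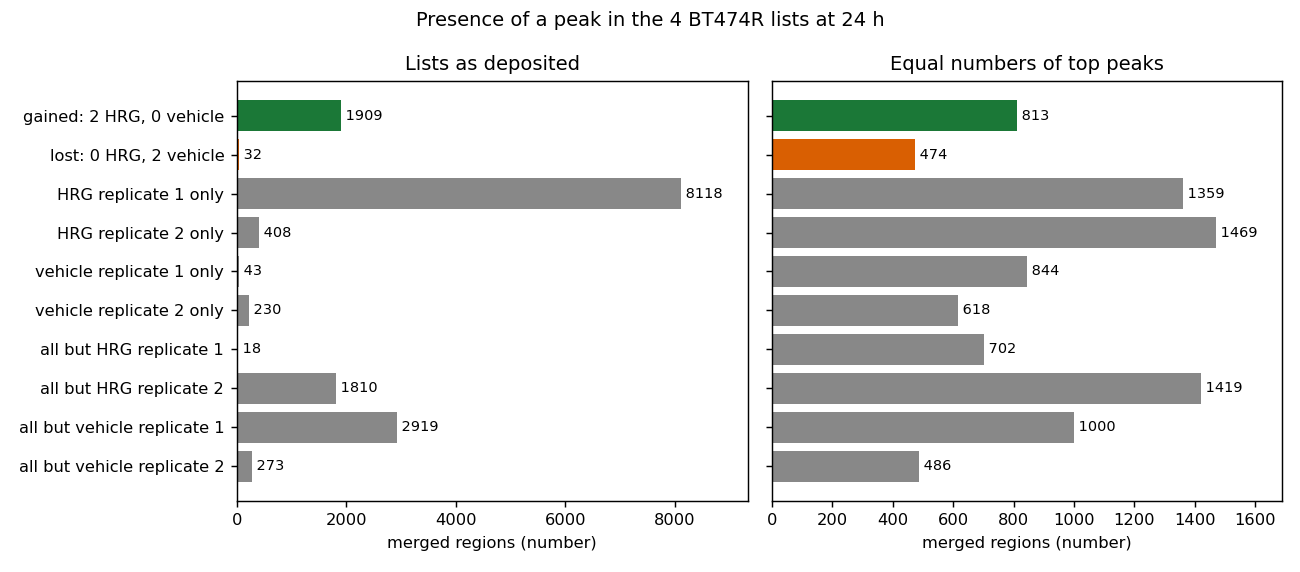
Number of merged regions (x axis) with each pattern of presence in the 4 lists (y axis), for the lists as deposited on the left and for the 41833 top peaks of each list on the right; regions in all 4 lists are not drawn, and the 2 x axes differ in scale. The 8118 regions found in HRG replicate 1 alone exceed the 1909 gained regions on the left, while on the right HRG replicates 1 and 2 have 1359 and 1469 regions of their own.

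Like regions found in a single list, gained regions were narrower than most, of low rank, and farther from protein-coding starts. Their median width was 332 bp against 522 bp for all merged regions, and their median GC content around the summit was 49.3% against 53.7%. The median percentile was 17.8 in HRG replicate 1 and 9.01 in HRG replicate 2, and only 2 gained regions reached 50 in both. The median distance to a protein-coding start was 26001 bp against 12984.5 bp over all regions. Regions within 1 kb of any annotated transcript start, called promoters here, made up 17.8% of gained regions (340 of 1909, exact 95% interval 16.1 to 19.6) and 36.2% of all regions, and introns held 48.1% against 37.4%. With equal numbers 16.9% of gained and 39.3% of all regions were promoters. These traits were not particular to gained regions. Regions found as deposited in HRG replicate 1 alone had a median width of 298 bp and 22.6% promoters. Those in vehicle replicate 2 alone had 268.5 bp and 15.7%. Regions lost with equal numbers had 286.5 bp and 14.8%.

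Of 18 sequences searched, the AP-1 sequence was the one whose share differed most between gained regions and all regions. A match to TGANTCA lay within 100 bp of the summit in 717 of the 1909 gained regions, or 37.6% (exact 95% interval 35.4 to 39.8, which covers counting error only). The share was 14.4% over all merged regions, 12.8% over those in all 4 lists and 0 of 32 among lost regions (exact 95% upper limit 10.9%). With equal numbers it was 41.1% of gained regions (37.7 to 44.6), 4.85% of lost regions and 14.0% of all. The vehicle lists held few regions of their own. A match was found in 4 of 43 in vehicle replicate 1 alone (9.30%, exact 95% interval 2.59 to 22.1). In vehicle replicate 2 alone it was 12 of 230 (5.22%, 2.72 to 8.94). For HRG replicates 1 and 2 the shares were 16.0% and 21.6%, both inside the first of these intervals. Without HRG replicate 2 the share among gained regions was 20.1%, and in the other 3 cases of leaving out a library it was 29.3% to 35.0%.

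**Figure D2:**
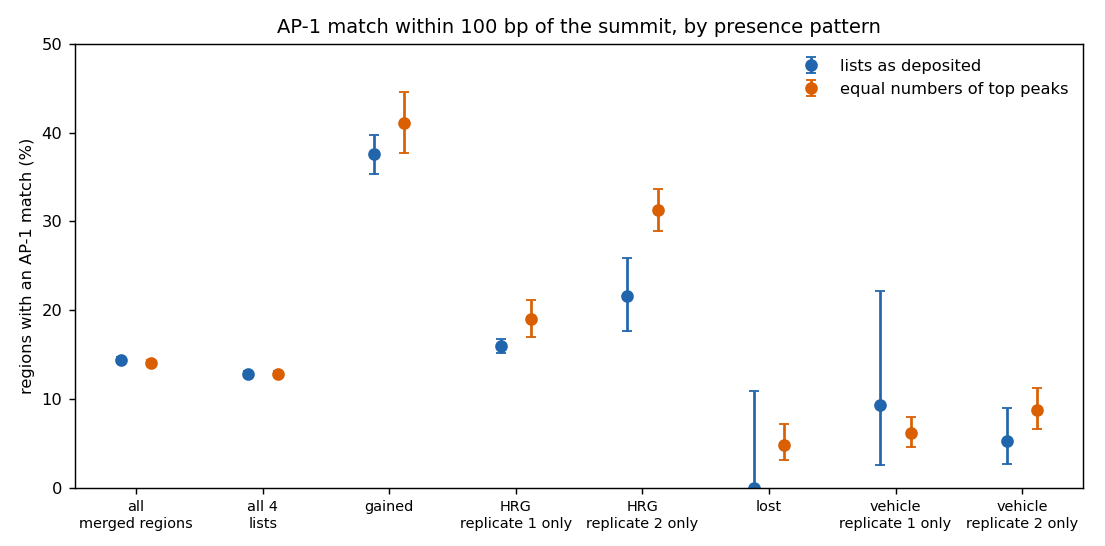
Share of regions (y axis, percent) with an AP-1 match within 100 bp of the summit, by presence pattern (x axis); blue points are the lists as deposited, orange points are equal numbers, and bars are exact 95% binomial intervals. Gained regions stand at 37.6% and 41.1%, above the HRG-only, vehicle-only, lost and all-list patterns.

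Stronger gained regions carried the sequence more often. When the gained regions were put in 4 equal groups from weakest to strongest, by the lower of the 2 HRG percentiles, 28.2%, 34.4%, 41.5% and 46.1% had a match. Matches lay a median of 28 bp from the summit, and 534 of 717 (74.5%) lay within 50 bp. A pair of matches was found in 5.81% of gained and 1.39% of all regions, and 3 or more in 0.786% and 0.133%. The difference was present both near and away from transcript starts: 30.0% of gained promoters against 7.17% of all promoters, and 39.2% against 18.5% elsewhere.

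Other sequences separated gained regions less, or in the opposite direction. GGGCGG, bound by SP and KLF factors at GC-rich promoters, was found in 7.91% of gained and 22.9% of all regions, and CCGGAAG, bound by ETS factors, in 1.73% and 4.67%. Both were also low outside the gained set. They were found in 12.0% and 1.74% of regions in HRG replicate 1 alone, and in 9.49% and 1.48% of regions lost with equal numbers. TGTTTAC, bound by forkhead factors such as the luminal factor FOXA1, was found in 7.02% and 7.91%, AGATAAG, read by factors such as the luminal factor GATA3, in 2.72% and 1.95%. The TEAD sequence CATTCCA was found in 5.13% and 4.03%. CCAAT, bound by NF-Y, was about equally common at 22.7% and 23.5%. The 474 regions lost with equal numbers had TGTTTAC in 14.6%, against 7.65% over all regions of the equal-number lists. Such matches describe the letters and do not show that a factor was bound.

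Counted per library, AP-1 matches were more frequent in both HRG lists. They lay in 14.4% and 14.6% of HRG peaks and in 12.1% and 12.8% of vehicle peaks, so the groups did not overlap. The difference was 2.08 percentage points (exact permutation p = 0.333, the smallest possible), and 1.90 with equal numbers. The groups did not overlap for several other sequences either, so such separation was not particular to AP-1. Among them were GGGCGG, with a difference of -2.36 (-0.571 with equal numbers), and CATTCCA, with 0.200 (0.116). The corresponding EGF lists at 24 h held 18.4% and 18.8%.

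Regions that stayed accessible in all 4 lists also moved up the ranking where they carried an AP-1 match. Among the 37469 shared regions, both HRG percentiles lay above both vehicle percentiles in 12153 (32.4%) and below in 671 (1.79%). That direction turned with equal numbers, at 5217 above (14.7%) and 7457 below (21.0%) of 35476, since the median difference over all shared regions was 3.13 percentile points as deposited and -0.45 with equal numbers. Against these backgrounds, the shared regions with an AP-1 match had 57.0% above and 0.648% below as deposited, and 31.4% above and 9.14% below with equal numbers. Their median difference was 7.33 as deposited and 2.26 with equal numbers, where HRG replicate 1 contributed 1.05 and HRG replicate 2 contributed 3.68. With equal numbers the shift of AP-1 regions was greatest in the weakest of 5 equal bins of shared regions (3.82 and 7.07 in the 2 HRG libraries) and near 0 in the strongest bin (-0.0711 and 0.685), and regions without a match had medians below 0 in all 5 bins and both libraries.

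**Figure D3:**
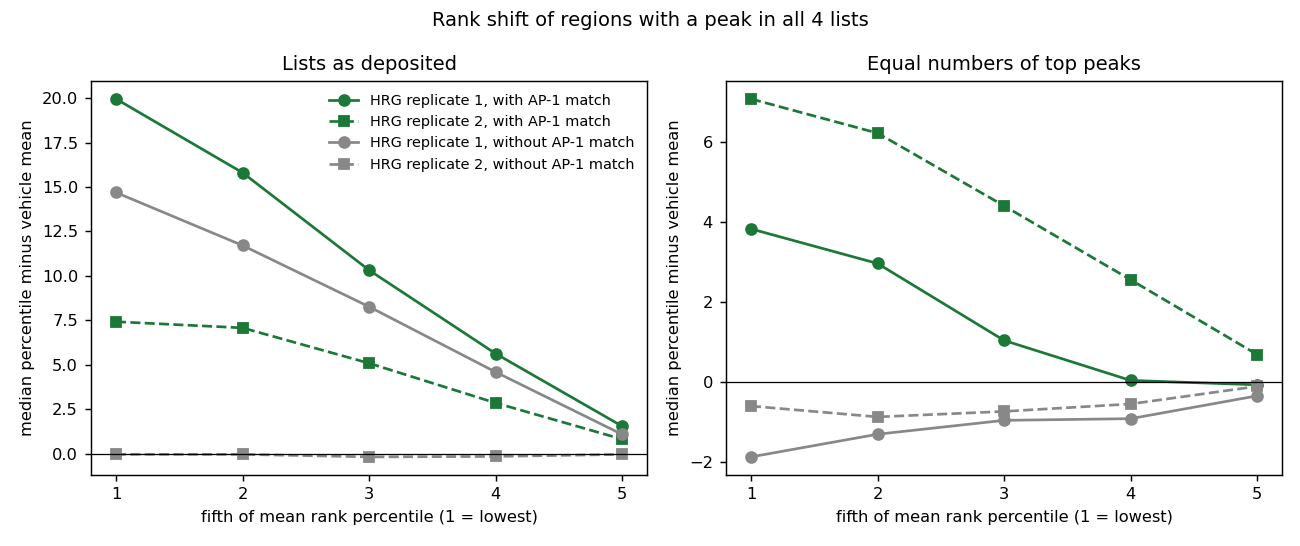
Median percentile of each HRG library minus the vehicle mean (y axis, percentile points) in 5 equal bins of shared regions by mean percentile (x axis, 1 is lowest), with and without an AP-1 match, for the lists as deposited (left) and for equal numbers (right, on a narrower scale). On the right, AP-1 regions lie above those without a match in both HRG libraries in all 5 bins, from 3.82 and 7.07 in the lowest to -0.0711 and 0.685 in the highest.

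Single regions were tested with limma on the percentiles of the shared regions. After Benjamini-Hochberg adjustment, 8 regions ranked higher after HRG (0.0214% of those tested) and 0 lower (0.0%), with 1798 higher and 26 lower at an unadjusted p under 0.05. With equal numbers 0 were called in either direction (0.0% and 0.0%), with 1194 higher and 638 lower at an unadjusted p under 0.05 and a smallest adjusted p of 0.153. As deposited but without HRG replicate 1, the balance at an unadjusted p under 0.05 turned, to 1239 higher and 1907 lower. The 8 called regions were wide, strong peaks, 7 of them at promoters, and their percentiles were tightly grouped in each pair of libraries. The call also needed both HRG libraries, since 0 regions were called higher without either one, and 74 and 149 were called without vehicle replicate 1 and 2.

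The largest called change was at the promoter of MRPL36, a mitochondrial ribosomal protein gene (chr5:1799035-1802155), at percentiles of 98.5 and 96.2 after HRG and 84.1 and 82.3 after vehicle, a difference of 14.1 ± 1.20 (SE; limma adjusted p = 0.0337). The promoter of PPP1R7, a regulatory subunit of protein phosphatase 1, stood at 97.3 and 96.5 against 83.3 and 84.6. That of STC2, which encodes the secreted glycoprotein stanniocalcin 2, stood at 98.1 and 97.0 against 85.3 and 85.9. In all 3 the HRG libraries lay in the top few percent of their lists and the vehicle libraries did not. The other 5 were the regions at the promoters of EPHA7, VIPR1 and H2BC21, one at another transcript start near CPLX1, and an intergenic region at -17154 bp from the start of EDN2, with differences of 6.02 to 9.22 and limma adjusted p from 0.0234 to 0.0424. In the equal-number lists all 8 differed by 6.13 to 14.6 with no overlap between the groups, but with limma adjusted p from 0.153 to 0.192. Only the VIPR1 region had an AP-1 match, and all 8 had a peak in both libraries of the other BT474R groups examined (baseline, vehicle and HRG at 1 and 12 h, EGF at 24 h).

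Larger rank changes occurred at weaker regions, where replicates varied more and limma called none. The widest gap between groups was at the promoter of CDC42EP1, a binding partner of the small GTPase CDC42 (chr22:37563213-37564705), with percentiles of 78.4 and 77.4 after HRG and 2.46 and 6.72 after vehicle (limma adjusted p = 0.0635). It carried an AP-1 match. A region at -4511 bp from the start of IER3, an immediate early gene, annotated as intronic (chr6:30748798-30749913), also with a match, stood at 82.1 and 79.8 against 16.8 and 25.8 (limma adjusted p = 0.0852). A region with a match 12548 bp downstream of the start of EPHA2, a receptor tyrosine kinase (chr1:16143385-16144187), stood at 62.1 and 60.5 against 2.09 and 18.9. These 3 regions were chosen for the gap between groups in these same lists. With equal numbers their groups did not overlap, which is therefore no second test.

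A region 4704 bp downstream of the start of DUSP6, the ERK phosphatase (chr12:89345812-89347219), had no AP-1 match and stood at 63.3 and 77.7 after HRG and 22.7 and 24.8 after vehicle (limma adjusted p = 0.28). The other 6 regions of this order were nearest to B4GALNT2, AUTS2, HM13, LTA4H, CADPS2 and KLRG2. Their groups did not overlap with equal numbers either, which is again no second test. In the opposite direction the widest gap was upstream of NEUROD2 (chr17:39613208-39614189), with percentiles of 12.4 and 20.0 after HRG and 44.2 and 53.0 after vehicle (limma adjusted p = 0.833). An intronic region near TATDN1 (chr8:124525929-124527521) stood at 72.8 and 71.8 against 92.4 and 92.6 (limma adjusted p = 0.0531). A region 4037 bp downstream of the start of JUN itself (chr1:58779703-58780414) stood at 37.5 and 25.9 against 50.6 and 57.4 (limma adjusted p = 0.982). None of the 10 regions with the widest gap in this direction was called.

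**Figure D4:**
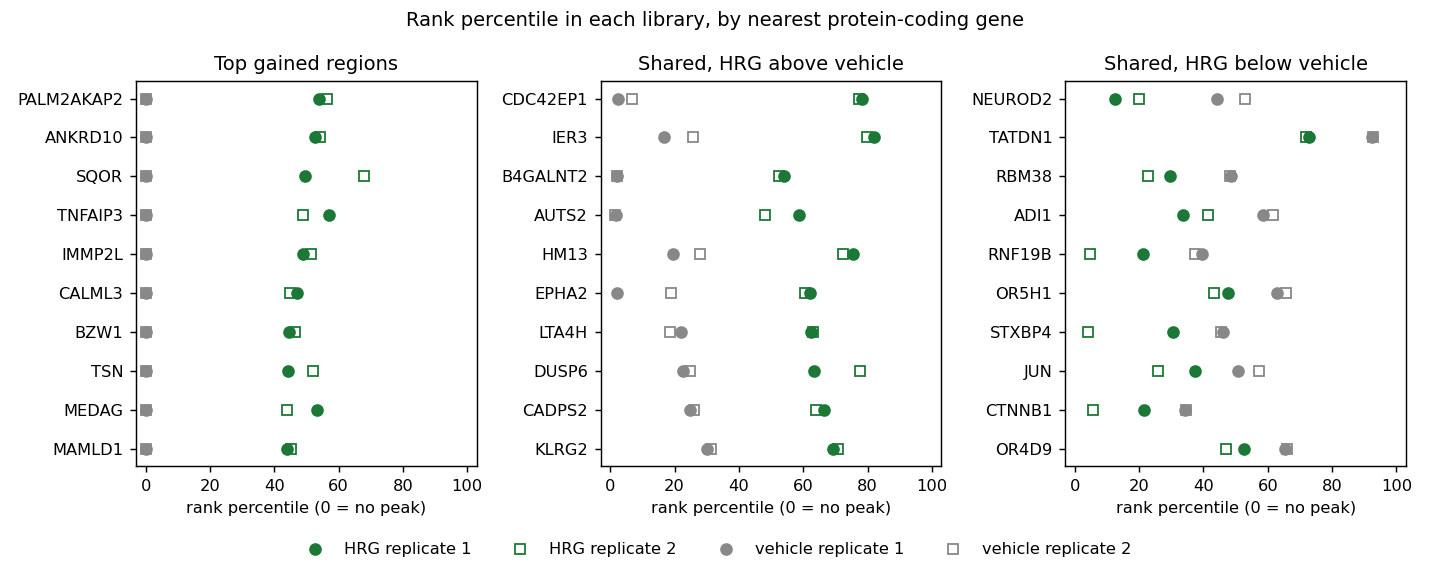
Rank percentile (x axis, 0 to 100, 0 for no peak) in each of the 4 libraries for 10 regions per panel, named by nearest protein-coding gene (y axis); green is HRG and grey is vehicle, filled circles are replicate 1 and open squares replicate 2. The left panel shows the strongest gained regions, and the other panels show the shared regions with the widest gap above or below vehicle, none of which limma called.

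The strongest gained regions were of middling rank. The first, in an intron of PALM2AKAP2, which encodes a kinase-anchoring protein (chr9:109790543-109791498), had percentiles of 53.8 and 56.5 after HRG. The region 111262 bp downstream of the start of TNFAIP3, which encodes the NF-kB inhibitor A20 (chr6:137978356-137979051), was intergenic and stood at 57.1 and 49.0. All other regions of this order, nearest to ANKRD10, SQOR, IMMP2L, CALML3, BZW1, TSN, MEDAG and MAMLD1, had percentiles from 43.9 to 67.8. The nearest start can be far away: the SQOR region lay 173220 bp, the TSN region 992487 bp and the MAMLD1 region -160451 bp from it. Of the 10, 6 had an AP-1 match, and all 10 were also gained with equal numbers, which their ranks settled in advance. All 10 had a peak in both HRG libraries at 1 and 12 h and both EGF libraries at 24 h. In both vehicle libraries 9 of the 10 had a peak at 1 h and 0 at 12 h, and 4 had one in both baseline libraries.

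Promoters of protein-coding genes were seldom gained. Of 19618 genes, 57 had a gained promoter (0.291%) and 0 a lost one (0.0%) in the lists as deposited. With equal numbers 38 had a gained promoter and 12 a lost one. The strongest gained as deposited were NAV2 at 36.2 and 37.8, SAMD14 at 36.5 and 30.7 and CEP44 at 29.5 and 30.0. The other 7 in order were CFAP65, STX1A, C2CD2, OR10H1, DNM3, ITGB5 and GNAL, of which ITGB5 encodes an integrin subunit and STX1A a syntaxin of vesicle fusion. Of these 10, 4 had an AP-1 match and 9 were also gained with equal numbers.

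Lost regions were few and had no AP-1 match. The strongest lay near the start of STARD3, a cholesterol transport gene beside ERBB2 (chr17:39655197-39657310), at percentiles of 46.9 and 49.0 in the vehicle libraries. The next was at SRCIN1 (chr17:38545629-38546927) at 31.4 and 37.7, and an intronic region nearest to PMEPA1, an androgen-responsive gene (chr20:57662765-57664402), stood at 13.6 and 21.6. The other 7 strongest, near LAMP3, NAAA, PSMD3, GNB4, LRRTM3, TAOK3 and VSTM2A, had percentiles of 5.98 to 22.7. Of the 10, 9 were also lost with equal numbers. Of the 32, 8 lay on chromosome 17, which held 3172 of the 55818 regions, and 3 on chromosome 20, which held 2099. With equal numbers chromosome 17 held 30 lost regions, or 1.10% of its regions, against 1.02% over all chromosomes.

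The receptors and their ligands differed little between the groups. The ERBB2 promoter was near the top of all 4 lists, at 99.9956 to 99.9977, ERBB3 stood at 98.7 and 96.6 after HRG and 96.9 and 98.1 after vehicle, and EGFR at 97.6 and 94.7 against 97.5 and 96.7. ERBB4 had a promoter peak in HRG replicate 1, at 27.1, and in vehicle replicate 2, at 2.70, and in neither other library. Among 11 ligand genes, 5 had a promoter peak in all 4 lists with overlapping groups in each, 5 (NRG1 among them) had none, and NRG2 had one in HRG replicate 1 alone. With equal numbers TGFA was the 1 ligand whose HRG percentiles both lay below vehicle, and EPGN the 1 nearest to a gained region. EGFR was the nearest gene of 2 gained regions, at -78.07 kb and 49.302 kb from its start, and neither was gained with equal numbers.

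Feedback inhibitors of MAP kinase signalling had the highest share of genes nearest to a gained region among the lists. A gained region within 100 kb had one of them as its nearest gene for 8 of the 14 (57.1%), against 1347 of 19618 genes (6.87%) overall. They were 11 of the 131 regions nearest to the list, 8.40%, against 3.13% for all genes and 9.38% (3 of 32) for the markers of other cells. With equal numbers only 2 of 14 (14.3%) had one, against 3.08% of all genes, and 1 of the 11 was gained in both. Of the regions nearest to the list 1.82% were then gained, against 1.56% for all genes, and 3 of the 14 genes were nearest to a lost region, against 359 of 19618. The 11 lay near DUSP1, DUSP4 (3 regions), DUSP6, ERRFI1, SPRED1 (2), SPRED2, SPRY1 and SPRY4, and those near DUSP1 and ERRFI1 were the 2 with an AP-1 match. The DUSP1 region (chr5:172777498-172777808), at -6.403 kb from its start, stood at 22.4 and 15.2 after HRG.

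The promoters of the feedback list, with a peak in all 4 lists for all 14 genes, also ranked higher in part. Both HRG percentiles lay above both vehicle percentiles at 6 of 14, against 20.5% of 12036 promoters, and below at 0, against 2.52%. With equal numbers the counts were 5 of 14 above, against 9.46%, and 0 below, against 24.0%. The 5 were DUSP1, DUSP6, DUSP7, SPRY1 and SPRY4, and DUSP10 was the sixth in the lists as deposited. SPRY1, a Sprouty inhibitor of receptor signalling, moved most, with 82.4 and 77.2 after HRG and 48.7 and 61.3 after vehicle. DUSP1 stood at 97.6 and 94.8 against 88.7 and 90.3, while SPRY2, of the same family, had overlapping groups at 93.7 and 79.3 against 92.7 and 90.6. None of these promoters was called by limma.

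AP-1 subunit genes themselves had few changes. Of the 14, 13 had a promoter peak in all 4 lists, 0 of which were above and 1 below in both HRG libraries. With equal numbers 12 had one in all 4 lists, of which 1 was above and 4 were below. The shares over all promoters were 20.5% above and 2.52% below, and 9.46% and 24.0% with equal numbers. JUN stood at 99.6 and 99.0 after HRG and at 99.5 in both vehicle libraries. FOSL1 stood at 78.0 and 69.4 against 75.4 and 74.6, with overlapping groups, and with equal numbers at 70.9 and 67.6 against 75.4 and 72.2, without overlap. Gained regions were nearest to FOSL2 and MAFK. Of 17 immediate early genes, which growth factors switch on within the first hour, 16 had a promoter peak in all 4 lists in both versions. Of these 16, 2 were above and 2 below, and 2 above and 6 below with equal numbers. MYC was above in both versions, at 88.1 and 92.1 against 78.9 and 85.4, and EGR1 was below in both, at 99.7 and 99.4 against 99.8 in both vehicle libraries. EGR1 and IER3 were each nearest to 1 gained region, both with an AP-1 match and both gained with equal numbers.

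The other gene lists held a few gained regions each, to be read against the 6.87% of all genes nearest to one, or 3.08% with equal numbers. Adhesion, matrix and EMT genes had one nearest in 6 of 22 cases, ITGA6, ITGB1, LAMA3 and CDH1 among them, and in 2 of 22 with equal numbers. The region near LAMA3, which encodes a laminin chain, carried an AP-1 match and was also gained with equal numbers. Glycolysis and hypoxia genes had one in 4 of 16 cases (ENO1, HK1, HK2 and PFKFB3), none of them with equal numbers, and their promoters were above in 6 and below in 0 of 15, or 4 and 0 with equal numbers, against 20.5% above and 2.52% below over all promoters, and 9.46% and 24.0% with equal numbers. G1 cell cycle genes had one in 2 of 12 (CCND1 and CCNE2), luminal factors in 3 of 15 (KRT8, KRT18 and XBP1), lipid synthesis in 2 of 15 (HMGCS1 and SREBF2), PI3K, AKT and mTOR in 1 of 20 (RPTOR), interferon response in 1 of 20 (IRF4) and androgen receptor and targets in 1 of 10 (SLC45A3). With equal numbers the G1 cell cycle, luminal factor and androgen lists had 0, and the other 3 had 1 each. The luminal breast epithelium markers had one in 3 of 10 cases and the markers of other cells in 2 of 10 (CDH5 and COL1A2), and neither had one with equal numbers. Lost regions were nearest to PMEPA1 (3 regions), ACACA and FOXA1.

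The gained regions were followed into the other BT474R libraries to see when and with which ligand they were accessible. At 12 h, 58.5% and 49.8% of the 1909 had a peak in the 2 HRG libraries and 0.733% and 11.5% in the 2 vehicle libraries, against 78.3% and 72.9%, and 55.1% and 68.5%, for all merged regions. The same presence as at 24 h, in both HRG and neither vehicle library, was found for 646 gained regions (33.8%), while 5.94% of all merged regions were gained and 0.034% lost at 12 h. With equal numbers it was 13.04% against 2.37%, with the 12 h lists cut to their 32479 top peaks. With the lists as deposited it was 10.0% without HRG replicate 2 of 24 h, and 50.2% among gained regions with an AP-1 match. The 12 h lists held 45808 and 42604 peaks for HRG and 32479 and 40331 for vehicle, so the vehicle lists were the shorter. Of all merged regions 54.4% had a peak in all of these lists and so could not be gained at 12 h, against 0.471% of the gained regions. Regions of like rank were not compared.

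After 1 h the gained regions were largely accessible with or without HRG. They had a peak in 74.1% and 86.4% of cases in the HRG libraries and 77.9% and 73.0% in the vehicle libraries. These shares were below those of all merged regions, at 85.6% and 89.8% with HRG and 89.5% and 88.3% with vehicle. The same presence was found for 3.72%, against 0.486% of all merged regions gained and 0.887% lost at 1 h. Before treatment 63.7% and 32.4% of the gained regions had a peak in the 2 baseline libraries, against 88.8% and 74.8% of all merged regions. The baseline libraries thus differed widely from each other.

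Gained regions with and without the AP-1 sequence had unlike histories. Those with a match had a peak in 45.2% and 20.1% of cases at baseline, against 74.8% and 39.8% for those without. At 24 h of EGF, which acts through EGFR, 97.8% and 98.5% of gained AP-1 regions had a peak, against 78.4% and 75.9% of the others and 86.4% and 84.3% of all regions. In vehicle libraries at 12 h, whose lists were short, 0 of 717 gained AP-1 regions (3 regions would be 0.418%) and 5.44% had a peak. In vehicle libraries at 1 h, however, 71.4% and 62.8% of gained AP-1 regions had a peak without ligand, against 81.9% and 79.2% of the others. Read the other way, 58.4% of the 646 gained regions without a peak in either baseline library had an AP-1 match, against 22.4% of the 572 with one in both, and 46.0% of those with a peak in both EGF libraries at 24 h had a match, against 2.35% of those with none.

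**Figure D5:**
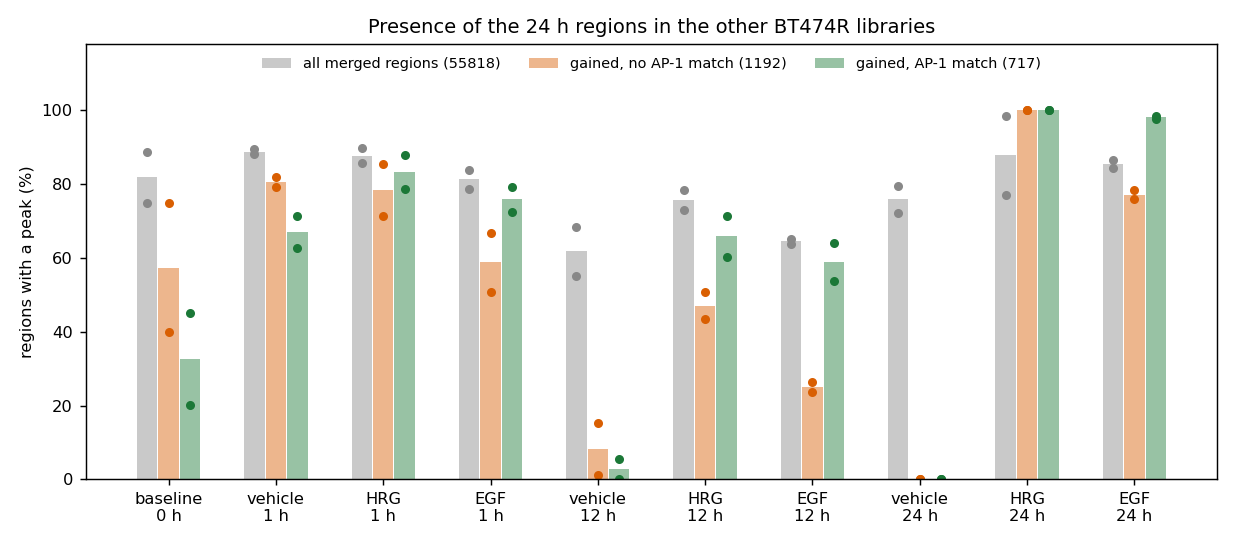
Share of regions with a peak (y axis, percent) in each BT474R group (x axis) for all 55818 merged regions, the 1192 gained regions without and the 717 with an AP-1 match; bars are means of 2 libraries and points the libraries. The 24 h vehicle and HRG values of gained regions are 0 and 100 by definition, and gained AP-1 regions reach 97.8% and 98.5% after 24 h of EGF.

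The parental line showed part of the same presence at 24 h. In BT474 cells 12.0% of the gained regions had a peak in both HRG and neither vehicle library at 24 h, against 2.81% of all merged regions gained and 0.86% lost, and for gained AP-1 regions it was 22.7%. In the BT474 vehicle libraries 39.4% and 36.9% of the gained regions had a peak, against 76.1% and 74.4% of all merged regions. In the BT474 HRG libraries the shares were 53.4% and 54.7%, against 78.2% and 76.9%. Of all merged regions 69.0% had a peak in both HRG and both vehicle libraries, against 29.6% of gained regions. Regions of like rank were not compared here either.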

How the data were processed

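Lists of ATAC-seq peaks from 4 BT474R libraries were used. Per the submitters' notes and the study's methods, the authors checked reads with FastQC, trimmed them with Trim Galore 0.6.6, aligned to GRCh38.p13 with BBMap, used samtools for sorting, and ran Genrich on each library to obtain peaks. In the sources used here its options are not given. The peak score the authors deposited is an area under the significance curve. It depends on depth, was listed from 200 upward, and was only ranked within a list. The −log10 p and −log10 q columns the authors deposited were not used.

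Regions were ranked by the best peak in each list, and limma 3.58.1 (trend = TRUE, R 4.3.3) was fitted to percentiles over regions with a peak in all 4 lists, with a threshold of 0.05 on the Benjamini-Hochberg adjusted p. Genes came from GENCODE 44. Each region was named by the nearest protein-coding start at any distance, and gene list counts took starts within 100 kb. Letters were searched on both strands within 100 bp of the summit for 18 motifs, of which those that separated the sets or belong to luminal factors are given. Sequence was read with pysam 0.24.0 and figures were drawn with matplotlib 3.10.9, under Python 3.11.15 with pandas 2.3.3, and scipy 1.17.1 and numpy 2.4.6 gave the intervals and exact tests.

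Named were the 10 gained, 10 lost and 10 promoter-gained regions with the highest lower percentile, the called regions, the 10 uncalled ones per direction with the widest gap, and list genes nearest to a gained or lost region. Some gene and sequence results under this rule are not reported here. The comparison and the 13 gene lists, with their markers, were chosen with earlier results of these data known. Alternatives were other score, list-length, overlap, width, window and promoter settings, a replicate block and leaving out each library.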

Additional observations from a re-analysis of the deposited data

How the results depend on the processing

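The difference in peaks per list was 535 to 11473 with 1 library left out, and no setting of 2 libraries against 2 could have passed the threshold. Equal numbers gave 813 gained, 474 lost, 0 ranked higher, an AP-1 share of 41.1% and 13.04% with the same presence at 12 h. For that last value the 12 h lists were cut to 32479 peaks. Peaks with a score of at least 400 gave 1244 gained, 10 lost, 19 higher, an AP-1 share of 31.8%, a promoter share of 20.7% and 31.2% at 12 h. The top 20000 peaks gave 335, 245 and 0, with an AP-1 share of 33.1%. Peaks of 400 bp around the summit gave 330 lost, 27 higher and 1 lower. A motif window of 250 bp gave 45.4% and promoters of 3 kb gave 31.4%. Regions without a peak taken at percentile 0, or log2 scores after quantile normalization, gave 0 higher.

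Leaving out each library gave 2187 to 10049 gained, 51 to 1904 lost, 0 to 149 higher and 0 to 1 lower, an AP-1 share of 20.1% to 35.0%, a promoter share of 18.2% to 21.7% and 10.0% to 32.8% at 12 h. Doing so with equal numbers, chosen after seeing the data, gave 1301 to 2323 gained, 0 to 1 higher, lost counts of 1096, 1182, 1322 and 1941, and AP-1 shares of 27.2%, 33.6%, 34.6% and 35.4%. In these limma fits the lone library of a group was assumed to vary like the other group. With a replicate block limma called 338 higher and 32 lower, and 0 and 0 with equal numbers (also added later). Same-numbered libraries correlated at 0.132 in their deviations (0.287 with equal numbers), which with 2 pairs does not establish pairing, so the number was not taken as a pair.

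Depth was unknown, 2 libraries per group cannot go below an exact p of 0.333, and presence cannot show change within a peak that is listed in all libraries.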

Other observations

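Most genes with a gained region had only 1. Of 19618 protein-coding genes, 1218 were nearest to 1 gained region, 114 to 2, 13 to 3 and 2 to 4. Those 2 were SVIL, which encodes the actin-binding protein supervillin, and DLK1, a Notch-related membrane protein. For SVIL, 4 of its 17 nearest regions were gained (23.5%), and its promoter stood at 97.7 and 96.1 after HRG and 97.0 and 96.7 after vehicle. For DLK1, 4 of 13 were gained (30.8%), and its promoter had no peak in any of the 4 lists. With equal numbers they had 2 and 1 gained regions.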
